A study of Mus musculus with 21 samples.

Results

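Irf4, Irf8, Spi1 (which encodes PU.1), Spib, Ikzf1 (Ikaros), Ikzf3 (Aiolos), Bach2 and Bcl6 are transcription factor genes of the IRF, Ets, Ikaros, BACH and BCL6 families that act while B cells mature. They were taken as every probe set of the Affymetrix mouse expression array whose platform gene symbol was 1 of these 8, which gave 16 of 45037 non-control probe sets and 8 of 18193 genes. A probe set is a group of short oligonucleotides that reads 1 stretch of transcript. Spi1 and Spib had 1 probe set each and the other 6 genes had several, so the probe set with the highest mean stands for the gene and each further probe set is given under its own identifier.

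The study hybridised 21 mouse arrays in 7 groups of 3. The 4 marrow groups were B220-positive bone marrow cells taken with a cell sorter and described as non-neoplastic. They came from wild-type mice, from mice transgenic for LAP (an activating isoform of the factor C/EBPb, encoded by Cebpb), from Blnk KO mice (called knockout-labelled here), and from Blnk KO mice that also carry LAP (LAP knockout-labelled). BLNK is an adaptor protein through which the pre-B-cell receptor signals. The other 3 groups were LB31, a single preB-ALL line established from a Blnk KO mouse, grown with 5 ng/ml IL7 and 10% FBS and transduced with a pMY retrovirus that was empty, carried Blnk cDNA (BLNK-labelled) or carried a loss-of-function mutant Blnk cDNA titled BLNK YF (YF-labelled). All 3 LB31 groups therefore share the Blnk KO origin and the retroviral transduction, and no LB31 result can be separated from features of this 1 line. The promoter that drives LAP, the animals' ages and any pooling were not given in the sources used here. Separate animals or cultures behind the 3 arrays of a group are not named either, so a p-value here weighs a difference against array-to-array spread that may be no more than technical.

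In B-cell development IRF4 and IRF8 are induced as pre-B-cell receptor signalling and falling IL7 signalling end proliferation, and they promote light-chain rearrangement, often bound next to PU.1 or Spi-B on composite Ets-IRF sites. Ikaros and Aiolos silence genes of the cycling pre-B stage, among them surrogate light chain genes. BACH2 and BCL6 hold back the plasma cell factor Blimp-1, and BCL6 also protects pre-B cells during light-chain rearrangement.

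Upstream sequence is shown for 4 members whose changes the results turn on, so that the letters before their start sites can be read beside the values. Each line gives the 250 bases before a RefSeq start site in GRCm38.p6, 5' to 3' on the gene's strand, with matches to 5 searched motifs in capitals.
Irf4 chr13:30748983-30749232(+): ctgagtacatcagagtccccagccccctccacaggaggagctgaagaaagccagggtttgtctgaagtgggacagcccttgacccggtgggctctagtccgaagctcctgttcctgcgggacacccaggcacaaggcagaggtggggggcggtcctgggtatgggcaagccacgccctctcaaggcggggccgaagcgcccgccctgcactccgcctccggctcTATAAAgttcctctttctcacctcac
Irf8 chr8:120736108-120736357(+): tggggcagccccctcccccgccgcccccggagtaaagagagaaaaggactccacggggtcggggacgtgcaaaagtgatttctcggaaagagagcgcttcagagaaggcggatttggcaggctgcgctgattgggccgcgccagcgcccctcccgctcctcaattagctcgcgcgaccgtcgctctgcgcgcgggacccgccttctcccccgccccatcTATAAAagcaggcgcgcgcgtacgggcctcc
Spib chr7:44532072-44532321(-): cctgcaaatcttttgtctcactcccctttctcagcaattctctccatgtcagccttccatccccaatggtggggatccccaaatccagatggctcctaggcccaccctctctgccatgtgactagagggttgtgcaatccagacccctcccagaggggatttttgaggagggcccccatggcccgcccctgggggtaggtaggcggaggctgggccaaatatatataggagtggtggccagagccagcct
Bach2 chr4:32417185-32417434(+): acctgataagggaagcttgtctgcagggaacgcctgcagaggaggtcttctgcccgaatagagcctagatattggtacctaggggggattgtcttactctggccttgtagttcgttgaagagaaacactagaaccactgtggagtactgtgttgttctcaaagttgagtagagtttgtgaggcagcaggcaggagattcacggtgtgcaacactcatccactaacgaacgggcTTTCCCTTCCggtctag
The capitals are TATAAA in Irf4 and Irf8, which begin 26 and 31 bases before the start site, and in Bach2 TTTCCCTTCC, an Ets-IRF composite read on the reverse strand, 17 bases before it. The Spib window held no match. The searched letters were the Ets-IRF composite, GGAA followed after 2 bases of any kind by GAAA, found on either strand in 2.3% of 32851 upstream windows of this length, the interferon response core, GAAA followed after 2 bases by another GAAA (2.98%), the Ets site GGAAGT (19.7%), the Ikaros core TGGGAA (21.6%) and, on the gene's strand alone, TATAAA (7.59%). The composite and the interferon core share their GAAA letters and can overlap. In all, 6 of the 8 members had a window, 9 windows were searched and 5 held a match. Spi1 and Ikzf3 had no window, so Ikzf3 is not shown although its marrow changes were the largest. The others were an Ikaros core 242 bases before a second Irf8 start site and a composite, GGAAAAGAAA, 28 bases before a Bcl6 start site. A match describes these letters and is no evidence of binding.

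Deposited array medians ran from 15.3 to 31.4, replicate arrays correlated at 0.963 to 0.98, and the Gapdh 3' to 5' signal ratio lay between 0.69 and 1.04. Levels below are log2(signal + 4) after quantile normalisation of all 21 arrays, and each change is a difference between group means on that scale, which understates the change of dim genes. In the values as deposited the median probe set was itself shifted, by 0.31 (knockout-labelled) and 0.33 (LAP knockout-labelled) relative to wild type and by -0.42 in LB31 relative to knockout-labelled marrow, so changes are relative to the bulk of the array. The Cebpb probe set 1427844_a_at followed the LAP label, at 10.05 ± 0.15 and 9.90 ± 0.08 (SD, n = 3) in the groups with LAP against 5.43 ± 0.10 and 5.02 ± 0.35 without. No LAP transgene is labelled for LB31. There the same probe set read 10.22 ± 0.10, 10.11 ± 0.05 and 10.09 ± 0.16 with the empty vector, BLNK and YF. Another Cebpb probe set, 1418901_at, did not separate the marrow groups by the LAP label. With LAP it read 8.31 ± 0.99, and 7.20 ± 0.39 where Blnk KO was also labelled. The matching groups without LAP read 7.28 ± 0.23 and 7.04 ± 0.64. Its LB31 group means ran from 4.62 to 5.02. The Blnk probe set did not follow the knockout label, at 12.44 ± 0.09 in wild-type and 12.37 ± 0.24 in knockout-labelled marrow, and in LB31 it read 8.56 ± 0.06 in BLNK-labelled against 9.63 ± 0.02 in empty-vector cells. Its position relative to the deleted part or the cDNA is not known here, and it checks neither label.

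The sorted marrow held RNA of more than 1 cell type, and marker signals moved with the groups. Summed signal of 10 markers of immature and mature B cells ran from 33700 to 36900 in wild-type, 26100 to 28700 in LAP, 14800 to 19200 in knockout-labelled and 2150 to 2600 in LAP knockout-labelled marrow. For 8 markers of pro-B and large pre-B cells the same ranges were 6260 to 7630, 6560 to 9480, 25000 to 27800 and 28500 to 29000. Signal of 7 general B-lineage markers was 25500 to 26200 in wild-type and 14900 to 16000 in LAP knockout-labelled marrow. Neutrophil markers (12 genes) reached 64200 on 1 LAP array, with the other marrow arrays between 16300 and 48900, and monocyte markers (11 genes) lay between 3500 and 17300. Megakaryocyte markers (6 genes) rose from 2500 to 2620 in wild-type to 6890 to 10300 in LAP knockout-labelled marrow. Markers of plasma cells (7 genes), T and NK cells (9, with Cd4 above its array's 40th percentile on no marrow array), erythroid cells (5) and conventional dendritic cells (6) summed to 6900 to 9000, 594 to 1550, 293 to 3510 and 127 to 477 over the marrow arrays. In LB31 the neutrophil sum was 45 to 137, the monocyte sum 217 to 390 and the immature and mature B sum 136 to 230, while the pro-B sum was 23400 to 27000. The plasma cell sum read 7760 to 10200 in this line, so it does not count plasma cells alone, and the T and NK sum 119 to 177. In wild-type marrow the plasma cell sum rests mostly on Mzb1 (11.69) and Xbp1 (11.3), and the T and NK sum on Cd2 (10.18). In bulk RNA of this kind, fewer cells of a type and less RNA per cell cannot be told apart. The part of this mixture in each result below was not tested.

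**Figure D1:**
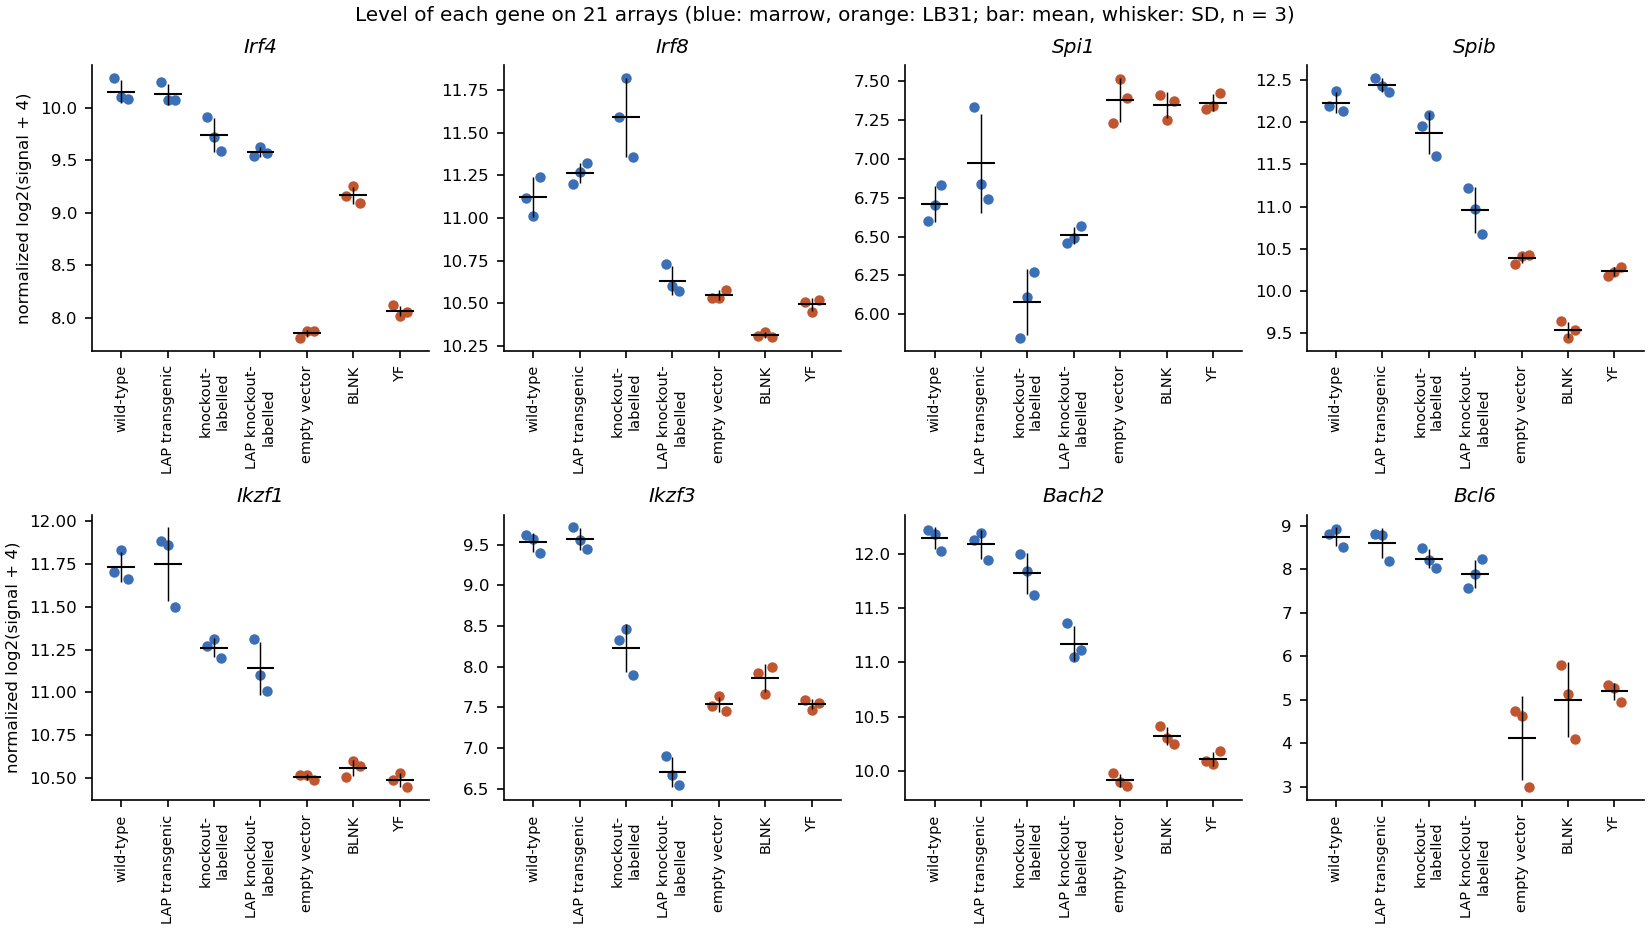
Level of each of the 8 genes on each of the 21 arrays, as normalised log2(signal + 4) on the vertical axis with its own scale per gene, for the 4 marrow groups in blue and the 3 LB31 groups in orange. Points are arrays, bars are means and whiskers are SD (n = 3). 7 of the 8 genes have their lowest marrow mean in the LAP knockout-labelled group, and Spi1 is the gene whose LB31 means all lie above its marrow means.

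In marrow, 4 of the 8 genes were lower with the knockout label and 7 where LAP was also present, relative to wild type, and none was called with LAP alone. In a fit of 1 probe set for each of 13342 genes, 1160 were lower with the knockout label and 1964 where LAP was also present. With LAP alone that fit called 3.92%. Aiolos moved furthest, 2.46-fold below wild type with the knockout label and 7.09-fold below it with LAP as well. Irf8 alone went up with the knockout label and then down with LAP. Of the 16 probe sets, 1 rose and 7 fell in knockout-labelled against wild-type marrow, where 12.7% of all 30128 probe sets tested were called at an adjusted p under 0.05 (limma, Benjamini-Hochberg over all of them, two-sided), 6.24% higher and 6.45% lower. In LAP knockout-labelled against wild-type marrow 13 fell and none rose, with 25.2% of all probe sets called and 12.6% lower. In LAP against wild-type marrow limma called 0 of 16 (2 had an unadjusted p under 0.05), against a background of 2.6% (1.23% higher and 1.36% lower). The count was 0 again, beside 1.84% of all probe sets, without LAP array 3, the array with the highest neutrophil and monocyte marker sums. The median change over the 16 probe sets was -0.50, -0.91 and -0.04 in these 3 comparisons, beside medians of 0, 0.01 and -0.02 over all probe sets. The 3 comparisons share the wild-type arrays. All 16 probe sets passed the filter on low signals, and all but Bcl6 1450381_a_at (11 arrays) were above the 40th percentile on 12 of 12 marrow arrays.

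Irf4, the factor of light-chain rearrangement and later of plasma cell differentiation, read 10.28, 10.10 and 10.08 in wild-type, 10.24, 10.07 and 10.07 in LAP, 9.91, 9.72 and 9.59 in knockout-labelled and 9.54, 9.63 and 9.57 in LAP knockout-labelled marrow. The wild-type and LAP arrays overlap, as do those of the 2 knockout-labelled groups, and every array of the first pair lies above every array of the second. The fall was 0.42 ± 0.10 in knockout-labelled marrow (SE, adjusted p = 0.0103, 1.34-fold lower) and the change was -0.58 in LAP knockout-labelled marrow (adjusted p = 0.00053). The first call was lost without wild-type array 1 (adjusted p = 0.0605) and in the values as deposited (-0.17, adjusted p = 0.277). The second was also lost as deposited (-0.29, adjusted p = 0.0593). The other probe set, 1421174_at, between 5.35 and 6.02 in marrow, was called in neither comparison (-0.28 and -0.27).

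Irf8, which shares targets with Irf4 and also directs monocyte and dendritic cell development, went the other way with the knockout label. Its levels were 11.12, 11.01 and 11.24 in wild-type and 11.20, 11.27 and 11.32 in LAP marrow, then 11.59, 11.82 and 11.36 in knockout-labelled marrow and 10.73, 10.60 and 10.57 in LAP knockout-labelled marrow. The knockout-labelled arrays are the highest of the 12 and the LAP knockout-labelled arrays the lowest, with no overlap between them. The rise over wild type was 0.47 ± 0.10 (adjusted p = 0.00786, 1.39-fold) and the difference between both knockout-labelled groups was -0.96 ± 0.10 (adjusted p = 5.95e-05, 1.94-fold lower with LAP). The other probe set, 1448452_at, gave 0.19 for the first (adjusted p = 0.442) and -1.03 ± 0.14 for the second (adjusted p = 0.000563), so the fall is seen on both probe sets and the rise is called on 1. LAP knockout-labelled marrow was below wild type by -0.49 ± 0.10 (adjusted p = 0.00305), a call lost in the values as deposited (-0.19, adjusted p = 0.239), and by -0.84 ± 0.14 on 1448452_at (adjusted p = 0.000626).

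Irf8 is also a gene of plasmacytoid dendritic cells, which carry B220 and so could pass this sort. Summed signal of 10 markers of these cells was 2930 to 3600 in wild-type, 2550 to 2800 in LAP, 3710 to 4610 in knockout-labelled and 2690 to 3170 in LAP knockout-labelled marrow. Their order over the 4 groups has the same highest group as that of Irf8. The lowest sum lies in LAP marrow, whereas Irf8 is lowest in LAP knockout-labelled marrow. Tcf4 weighs most in this sum, as the brightest of the 10 markers in every marrow group. It read 10.66 in wild-type marrow, 10.69 with LAP, and 11.09 where LAP and Blnk KO were both labelled. In that last group Tcf4 and Klk1 had their highest marrow mean. Siglech, Bst2, Ccr9, Cox6a2, Irf7, Pacsin1, Tlr7 and the dim Tlr9 instead had their lowest marrow mean there, as Irf8 did. In the LB31 line the same sum still read 1650 to 1730. Between both knockout-labelled groups 7 of the 10 fell with LAP and none rose, with a median of -0.90. Siglech, a surface receptor that defines these cells, read 8.57 without LAP and 6.83 with it in these groups (-1.73, adjusted p = 0.00715), and Ccr9, their homing receptor, read 8.78 and 6.04 (-2.75, adjusted p = 9.75e-05). Their part in the Irf8 values was not tested.

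Of the pair of Ets factors, Spib fell in LAP knockout-labelled marrow and Spi1 in knockout-labelled marrow. Spib, a lymphoid relative of PU.1 that is also high in plasmacytoid dendritic cells, read 12.19, 12.37 and 12.13 in wild-type, 12.52, 12.43 and 12.36 in LAP, 11.95, 12.08 and 11.60 in knockout-labelled and 11.22, 10.97 and 10.68 in LAP knockout-labelled marrow. In deposited signal that is 4080 to 4420 in wild-type against 1850 to 2380 in LAP knockout-labelled marrow. The last group lies below all other marrow arrays, and LAP and wild-type arrays overlap. The change in knockout-labelled marrow, -0.36 ± 0.13, did not pass (adjusted p = 0.103, 95% interval -0.64 to -0.07), though it was called with all 21 arrays in 1 fit (adjusted p = 0.0358) and after centring each array on its median (0.016). The fall in LAP knockout-labelled marrow was -1.27 ± 0.13 against wild type (adjusted p = 9.54e-06, 2.42-fold lower) and -0.92 ± 0.13 against knockout-labelled marrow (adjusted p = 0.000848, 1.89-fold lower).

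Spi1, the PU.1 gene of myeloid and early B cells, read 6.60, 6.70 and 6.83 in wild-type, 7.33, 6.84 and 6.74 in LAP, 5.85, 6.11 and 6.27 in knockout-labelled and 6.46, 6.49 and 6.57 in LAP knockout-labelled marrow. The 3 knockout-labelled arrays are the lowest of the 12. That change was -0.63 ± 0.17 (adjusted p = 0.0223), and the call was lost without knockout-labelled array 1 (0.101) or 2 (0.051), without wild-type array 2 (0.0642) or 3 (0.0838), and in the values as deposited (-0.23, adjusted p = 0.403). LAP knockout-labelled marrow gave -0.20 against wild type (adjusted p = 0.419) and 0.43 ± 0.17 against knockout-labelled marrow (adjusted p = 0.188). LAP array 1, at 7.33, is the highest Spi1 value in marrow. Monocyte markers, which share PU.1 as their regulator, summed to 3940 to 5380 in wild-type, 6660 to 17300 in LAP, 3500 to 7150 in knockout-labelled and 9440 to 12200 in LAP knockout-labelled marrow. Their part in the Spi1 values was not tested.

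The Ikaros family pair moved to unequal degrees. Ikzf1, which encodes Ikaros, read 11.70, 11.83 and 11.66 in wild-type, 11.88, 11.86 and 11.50 in LAP, 11.27, 11.31 and 11.20 in knockout-labelled and 11.31, 11.10 and 11.01 in LAP knockout-labelled marrow. Both knockout-labelled groups lie below both other groups and overlap each other. The changes from wild type were -0.47 ± 0.10 (adjusted p = 0.00779) and -0.59 (adjusted p = 0.000724), and neither was called in the values as deposited (-0.24, adjusted p = 0.185, and -0.33, adjusted p = 0.0557). The second probe set, 1421303_at, read 4.41 to 5.45 in marrow, and its change was called with the knockout label (-0.79 ± 0.22, adjusted p = 0.0302) but not in LAP knockout-labelled marrow (-0.40, adjusted p = 0.214).

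Ikzf3, which encodes Aiolos and normally rises from the pre-B stage onwards, read 9.62, 9.57 and 9.40 in wild-type and 9.71, 9.55 and 9.44 in LAP marrow. It read 8.33, 8.46 and 7.90 in knockout-labelled and 6.90, 6.67 and 6.54 in LAP knockout-labelled marrow. The deposited signals were 736, 656 and 686 in wild-type, 342, 393 and 308 in knockout-labelled and 140, 122 and 119 in LAP knockout-labelled marrow, so the 3 levels are separate on either scale. The knockout-label change was -1.30 ± 0.15 (adjusted p = 5.48e-05), the change in LAP knockout-labelled marrow -2.82 ± 0.15 against wild type (adjusted p = 1.06e-08), and the difference between both knockout-labelled groups -1.52 ± 0.15 (adjusted p = 2.14e-05, 2.88-fold lower). Against LAP marrow the LAP knockout-labelled group was 7.27-fold lower (-2.86 ± 0.15, adjusted p = 1.36e-08). Probe sets 1441088_at and 1453378_at also fell from wild-type to LAP knockout-labelled marrow (-1.41 and -1.97, adjusted p = 0.000288 and 0.000202). With the knockout label alone the first gave -0.72 ± 0.22 (adjusted p = 0.0459) and the second -0.54 (adjusted p = 0.273). The immature and mature B markers, whose summed signal is given above, fell over the same groups: 9 of 10 with the knockout label (median -1.61) and 10 of 10 in LAP knockout-labelled marrow (median -3.93).

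BACH2 and BCL6, the repressors, were lowest in LAP knockout-labelled marrow. Bach2 read 12.22, 12.18 and 12.03 in wild-type, 12.13, 12.19 and 11.94 in LAP, 12, 11.84 and 11.62 in knockout-labelled and 11.36, 11.05 and 11.11 in LAP knockout-labelled marrow. Only the last group stands clear of the others. Its change from wild type was -0.97 ± 0.11 (adjusted p = 1.31e-05), with -1.25 and -1.19 on probe sets 1437667_a_at and 1445460_at, both called (adjusted p = 9.6e-05 and 0.000445). With the knockout label alone the representative gave -0.32 ± 0.11 (adjusted p = 0.0616), which was called with all 21 arrays in 1 fit (0.0175), after centring (0.014) and without knockout-labelled array 1 (0.0363). There 1445460_at fell by 0.96 ± 0.19 (adjusted p = 0.00489), and it was also the member nearest to a call with LAP alone (-0.66 ± 0.19, adjusted p = 0.0906). Bcl6 read 8.80, 8.93 and 8.52 in wild-type, 8.81, 8.79 and 8.20 in LAP, 8.48, 8.22 and 8.04 in knockout-labelled and 7.58, 7.88 and 8.23 in LAP knockout-labelled marrow. Neighbouring groups overlap in this order. The change from wild type to LAP knockout-labelled marrow passed (-0.85 ± 0.20, adjusted p = 0.00548, and -1.22 on 1450381_a_at, adjusted p = 0.00862), though not with all 21 arrays in 1 fit (adjusted p = 0.104), and that in knockout-labelled marrow did not (-0.50 ± 0.20, adjusted p = 0.117).

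**Figure D2:**
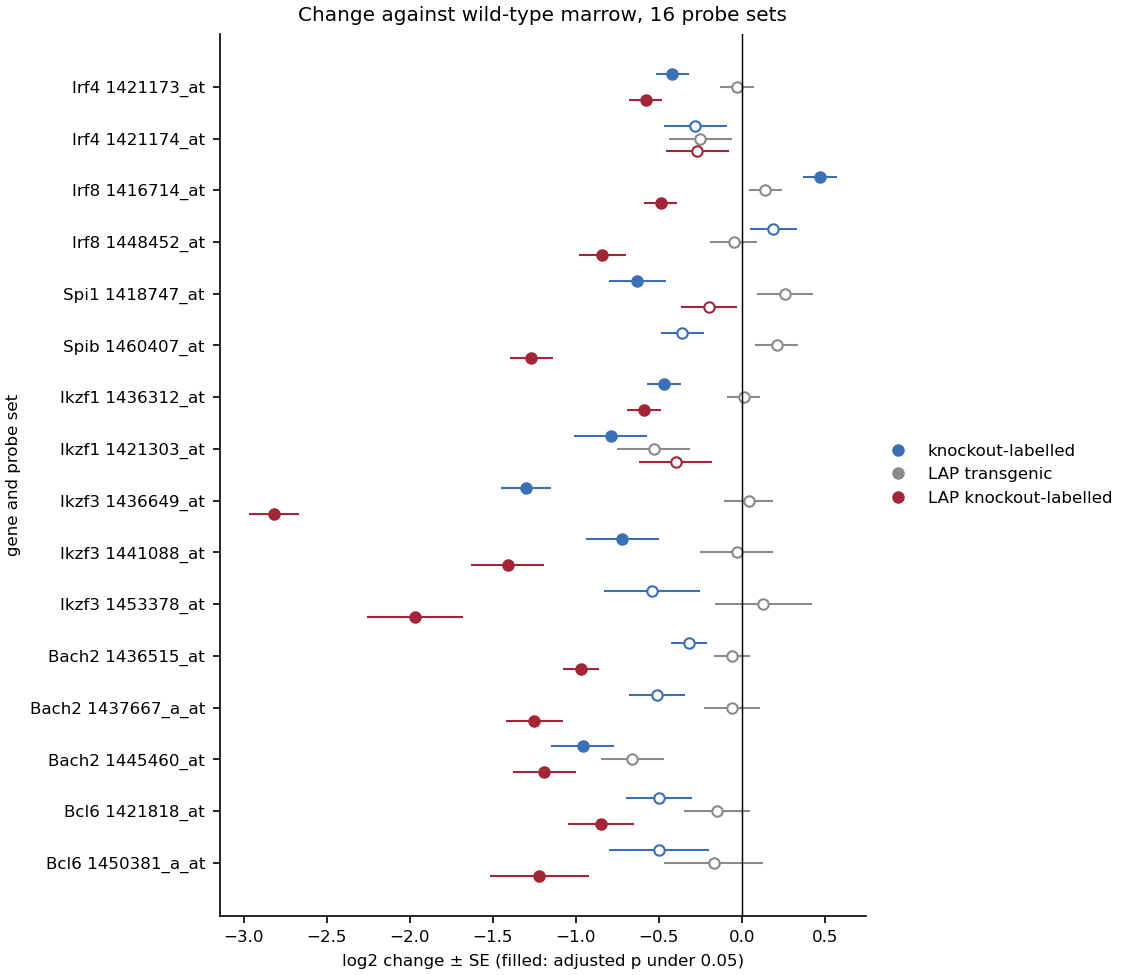
Change of each of the 16 probe sets against wild-type marrow on the log2 scale (horizontal axis, bars are SE), for knockout-labelled, LAP and LAP knockout-labelled marrow. Filled points have an adjusted p under 0.05. The LAP points are all open, the lowest being Bach2 1445460_at (-0.66) and Ikzf1 1421303_at (-0.53), while 13 LAP knockout-labelled points are filled and lower, down to -2.82 for Ikzf3.

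Between LAP knockout-labelled and knockout-labelled marrow 7 of 16 probe sets fell and none rose, with 5.2% of all probe sets called, 2.03% higher and 3.17% lower. Those were both Irf8 probe sets, Spib, Ikzf3 1436649_at and 1453378_at (-1.43, adjusted p = 0.00957), and Bach2 1436515_at (-0.65 ± 0.11, adjusted p = 0.00197) and 1437667_a_at (-0.74, adjusted p = 0.0201). Irf4 gave -0.16 (adjusted p = 0.449), Ikzf1 -0.12 (0.614) and Bcl6 -0.35 (0.398), so these 3 were not distinguished between both groups. Against LAP marrow 12 of 16 probe sets were lower in LAP knockout-labelled marrow, with 21.2% of all called and 9.86% lower. As deposited, 6 probe sets were called, beside 39.2% of all probe sets, 10720 of them higher and 1084 lower, with a median change of 0.4 over all. The Bcl6 call there (-0.70, adjusted p = 0.0197) was lost without LAP knockout-labelled array 1 (0.0872) or 2 (0.0582) and without LAP array 1 (0.0852) or 2 (0.0684), with all 21 arrays in 1 fit (0.212) and as deposited (-0.28, adjusted p = 0.249).

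The difference between the LAP change in knockout-labelled and in wild-type marrow was tested as an interaction. It was called for 4 of 16 probe sets of 3 genes, all negative, where 1.18% of all probe sets were called and 0.85% were negative. Without LAP array 3 it was called for 6, where 1.59% of all probe sets were called. For Irf8 the LAP change was 0.14 in wild-type and -0.96 in knockout-labelled marrow, a difference of -1.10 ± 0.14 (adjusted p = 0.00148, 95% interval -1.41 to -0.79), and on 1448452_at the difference was -0.98 ± 0.20 (adjusted p = 0.0296). For Spib the changes were 0.21 and -0.92, a difference of -1.13 ± 0.19 (adjusted p = 0.00791, interval -1.53 to -0.72). For Ikzf3 they were 0.04 and -1.52, a difference of -1.56 ± 0.21 (adjusted p = 0.00157, interval -2.01 to -1.11). Its probe set 1453378_at gave a difference of the same size that did not pass (-1.57 ± 0.41, adjusted p = 0.1). Bach2 gave -0.59 ± 0.15 (adjusted p = 0.083), called without LAP knockout-labelled array 1 (0.0381), LAP array 3 (0.0408) or knockout-labelled array 3 (0.0229). Differences for Irf4 (-0.13), Ikzf1 (-0.14), Spi1 (0.17) and Bcl6 (-0.20) did not pass. All 10 immature and mature B markers were negative by the same test (median -2.35) and 1 of 10 plasmacytoid dendritic markers was, while Siglech (adjusted p = 0.446) and Ccr9 (0.155) were not called.

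**Figure D3:**
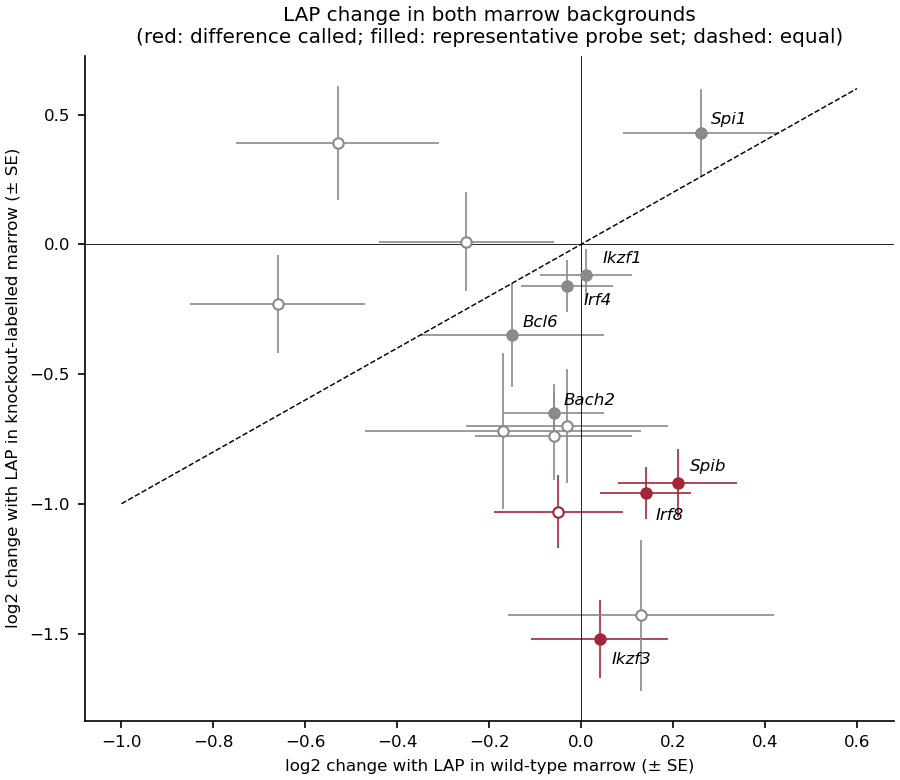
The LAP change of each probe set in wild-type marrow (horizontal axis, log2) against its LAP change in knockout-labelled marrow (vertical axis, log2), with SE bars. Filled points are the probe sets that stand for the named genes, red marks an interaction with an adjusted p under 0.05, and the dashed line is equality. The 4 red points, of Irf8, Spib and Ikzf3, lie between -0.92 and -1.52 on the vertical axis and between -0.05 and 0.21 on the horizontal one.

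Across the 12 marrow arrays, Spib, Ikzf3 and Bach2 ran closest to each other, with Pearson r of 0.97 for Spib and Ikzf3, 0.96 for Ikzf3 and Bach2 and 0.96 for Spib and Bach2. Irf4 followed Ikzf3 at 0.93, while Irf8 stood apart from Irf4 (0.3) and Spi1 (-0.31). These values describe arrays that share the group structure and are given with no test. Among 3289 gene probe sets that varied by an SD of at least 0.5 over these arrays, the profiles most like that of Ikzf3 were Cd2, a lymphocyte adhesion receptor (0.999), 4930426D05Rik (0.997) and Klf2, a regulator of lymphocyte homing (0.994). For Spib they were Pml (0.981), Blk, a B-cell Src kinase (0.979), and Anks3 (0.977). Those of Bach2 were Fcrla (0.99), a probe set annotated to Mir142 (0.982) and Relb (0.981). Irf4 was most like Dmrt3 (0.978), Otud1 (0.96) and Slc26a11 (0.957), and Ikzf1 like Islr2 (0.968), Prag1 (0.967) and Cpm (0.966). Irf8 was most like Adm (0.95), Cacna1e (0.928) and Gm5547 (0.881), Spi1 like Lrrc10b (0.925), S1pr3 (0.895) and Dusp3 (0.893), and Bcl6 like S1pr5 (0.9), Otud1 (0.888) and Btg2 (0.888). Probe sets of 1 gene agreed over these arrays at 0.92 for Irf8, 0.95 and 0.95 for Ikzf3, 0.98 and 0.73 for Bach2 and 0.85 for Bcl6, but at 0.57 for Irf4 and 0.37 for Ikzf1.

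Relatives of the members were counted gene by gene. The limma fit called none of 6 other IRF genes in knockout-labelled against wild-type marrow (median -0.12, 1 with an unadjusted p under 0.05), and all 6 fell in LAP knockout-labelled marrow (median -0.72), led by Irf7, the amplifier of type I interferon production (-1.18 ± 0.23, adjusted p = 0.00209), Irf9, part of the interferon-stimulated complex ISGF3 (-0.80 ± 0.17, 0.00286), Irf2 (-0.76 ± 0.16, 0.00291) and Irf1 (-0.67 ± 0.16, 0.00637). As deposited, 3 of the 6 fell. Irf7 is also 1 of the plasmacytoid dendritic markers above. Against knockout-labelled marrow 4 of 6 fell, by -0.60 to -0.91. Of 12 other Ets factors 4 rose and 2 fell with the knockout label (median 0.06). Erg, a progenitor factor, rose by 3.40 ± 0.16 (adjusted p = 4.84e-08), and Etv6 by 0.79 ± 0.13 and Elk4 by 0.51 ± 0.08, while Ets2 fell by 1.64 ± 0.17 (adjusted p = 2.6e-05). In LAP knockout-labelled against wild-type marrow 4 rose and 2 fell again, with Erg at 3.96 ± 0.16 and Ets1, a lymphoid Ets factor, at -0.75 ± 0.08 (adjusted p = 6.98e-06). The limma fit called none of Ikzf2, Ikzf4 and Ikzf5 in knockout-labelled marrow (1 had an unadjusted p under 0.05), with Ikzf2 at 0.41 ± 0.22 and Ikzf4 at 0.54 ± 0.34 in knockout-labelled marrow. Of 12 partners and corepressors 3 rose with the knockout label, by at most 0.51 (Mta2, a subunit of the NuRD complex that works with Ikaros).

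Genes known to answer to these factors moved beside them, although several are stage markers in their own right. Of 8 genes that Ikaros and Aiolos repress, 5 rose and 1 fell with the knockout label (median 0.95), among them the surrogate light chain genes Igll1 (2.32 ± 0.16, adjusted p = 7.87e-07) and Vpreb1 (1.66 ± 0.11, 7.33e-07) and Dntt, which encodes TdT (2.16 ± 0.25, 5.75e-05). Ccnd2, cyclin D2, fell by 0.66 ± 0.15 and was at -2.01 ± 0.15 in LAP knockout-labelled marrow (adjusted p = 3.3e-07), where again 5 of 8 rose. Igll1, Vpreb1 and Dntt are 3 of the pro-B and large pre-B markers above. Of 6 genes that IRF4 and IRF8 activate, 4 fell with the knockout label (median -0.62) and 5 in LAP knockout-labelled marrow (median -1.87). Ciita, the master regulator of MHC class II, changed by -2.32 ± 0.19 and -3.52 ± 0.19, Klf2 by -1.82 ± 0.17 and -3.55 ± 0.17 and the kappa light chain probe set Igk by -0.72 ± 0.17 and -3.03 ± 0.17. As deposited, 2 and 4 of the 6 fell, and 1 rose in LAP knockout-labelled marrow. Of 11 B-cell genes that PU.1 and Spi-B activate, 8 fell with the knockout label and 9 in LAP knockout-labelled marrow, where Fcer2a (CD23) changed by -6.11 ± 0.25, P2ry10 by -5.03 ± 0.23, Cr2 (CD21) by -3.50 ± 0.18 and Cd40 by -3.20 ± 0.23. As deposited 5 and 7 fell, and 6 of the 11 are also B-lineage, mature B or plasmacytoid dendritic markers.

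The remaining lists had few calls or calls in both directions. Of 9 myeloid genes that PU.1 activates, limma called none with the knockout label (median 0.26, 1 with an unadjusted p under 0.05) and 1 rose in LAP knockout-labelled marrow, Tlr4, a receptor of bacterial lipopolysaccharide (0.86 ± 0.22, adjusted p = 0.0103). As deposited, 7 rose there, and 6 of the 9 are monocyte markers. Of 11 genes that BACH2 and BCL6 repress, 2 rose and 1 fell with the knockout label. The riser Ccl3, a chemokine, gave 1.23 ± 0.37 and the heme oxygenase gene Hmox1 0.96 ± 0.30, while Prdm1, the gene of Blimp-1, fell by 1.22 ± 0.19 (adjusted p = 0.000681). Prdm1 stayed lower in LAP knockout-labelled marrow (-1.33 ± 0.19, adjusted p = 0.000134), where Cdkn1a, the cell-cycle inhibitor p21, was higher (1.79 ± 0.21, adjusted p = 2.83e-05). There 3 rose and 2 fell, with 5 and 1 as deposited. With LAP alone, Ccl3 rose by 2.35 ± 0.37 (adjusted p = 0.00549).

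In LB31 cells the BLNK label went with higher Irf4 and Bach2, lower Spib and lower Irf8 (the last not called in the values as deposited or after centring), and no member was called with YF. Irf4 was 2.49-fold higher and Spib 1.8-fold lower with BLNK than with the empty vector. Of the 16 probe sets 5 rose and 3 fell with BLNK, against 11.4% of 29478 probe sets called, 5.57% higher and 5.82% lower, and the median change was 0.24 beside 0 over all. With YF limma called 0 of 16 (5 had an unadjusted p under 0.05), beside 0.227% of all (0.115% higher and 0.112% lower). Between BLNK and YF 3 were higher and 3 lower, beside 6.34% called, 2.5% higher and 3.84% lower. BLNK and YF comparisons share the empty-vector arrays, and all rest on the 1 line.

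Irf4 read 7.81, 7.87 and 7.87 in empty-vector, 9.16, 9.25 and 9.09 in BLNK-labelled and 8.12, 8.02 and 8.05 in YF-labelled cells. In deposited signal these were 231, 158 and 181, then 485, 642 and 536, then 283, 290 and 280. The 3 groups do not overlap, and YF-labelled cells lie between the others, nearer to the empty vector. The rise with BLNK was 1.31 ± 0.06 over empty vector (adjusted p = 5.42e-08) and 1.10 ± 0.06 over YF (adjusted p = 4.07e-07, 2.15-fold). Probe set 1421174_at gave 0.72 ± 0.12 and 0.53 (adjusted p = 0.00199 and 0.0198). The YF change of 0.21 ± 0.06 did not pass (adjusted p = 0.155), though after centring each array on its median it was 0.48 (adjusted p = 0.0346). Under that centring the median of all probe sets was itself 0.21, and 1796 of 1833 calls were higher.

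Spib moved opposite to Irf4, at 10.32, 10.42 and 10.43 in empty-vector, 9.64, 9.45 and 9.54 in BLNK-labelled and 10.18, 10.23 and 10.29 in YF-labelled cells. The BLNK-labelled arrays lie below all others. The change was -0.85 ± 0.05 against empty vector (adjusted p = 5.6e-07) and -0.69 ± 0.05 against YF (adjusted p = 5.87e-06, 1.61-fold lower), and YF gave -0.15 ± 0.05 (adjusted p = 0.233). Irf8 read 10.53, 10.53 and 10.58, then 10.31, 10.33 and 10.30, then 10.51, 10.45 and 10.52 in the same order. Its fall with BLNK of -0.24 ± 0.04 (adjusted p = 0.00145) was -0.40 ± 0.07 on 1448452_at (adjusted p = 0.00234). It depends on the scaling: the representative gave -0.01 as deposited (adjusted p = 0.984) and 0.00 after centring (0.996), where the median of all probe sets was 0.10 and 0.11, and the call was also lost with all 21 arrays in 1 fit (0.12). Its difference from YF (-0.18 ± 0.04, adjusted p = 0.0147) was lost without BLNK array 1 (0.0612) or 3 (0.0608), or YF array 1 (0.0685) or 3 (0.0769), with all 21 arrays in 1 fit (0.397), after centring (-0.23, adjusted p = 0.311) and as deposited (-0.35, adjusted p = 0.329).

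Bach2 read 9.98, 9.90 and 9.86 in empty-vector, 10.41, 10.30 and 10.25 in BLNK-labelled and 10.09, 10.06 and 10.18 in YF-labelled cells, 3 groups that do not overlap. It rose with BLNK by 0.41 ± 0.05 (adjusted p = 0.00024) and by 0.33 ± 0.05 on 1437667_a_at (adjusted p = 0.000979). The YF change was 0.19 ± 0.05 (adjusted p = 0.133), called without empty-vector array 1 (0.23, adjusted p = 0.0222). The difference between BLNK and YF (0.21 ± 0.05, adjusted p = 0.0298) was lost without BLNK array 1 (0.142) or 2 (0.0754), or YF array 1 (0.108) or 2 (0.137), with all 21 arrays in 1 fit (0.34), after centring (0.18, adjusted p = 0.476) and as deposited (0.07, adjusted p = 0.889). Ikzf3 read 7.51, 7.64 and 7.46, then 7.92, 7.66 and 7.99, then 7.59, 7.47 and 7.55. Its rise with BLNK, 0.32 ± 0.09, passed narrowly (adjusted p = 0.0438) and was lost without BLNK array 1 (0.144) or 3 (0.171), without empty-vector array 1 (0.0648) or 3 (0.136), with all 21 arrays in 1 fit (0.192), without the filter (0.0587) and as deposited (0.45, adjusted p = 0.29).

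Ikaros, PU.1 and BCL6 were not distinguished between the LB31 groups. Ikzf1 lay between 10.45 and 10.60 on all 9 arrays, with a BLNK change of 0.05 (95% interval -0.04 to 0.14). Spi1 lay between 7.23 and 7.51, with -0.03 (interval -0.23 to 0.16). Bcl6 was scattered, at 4.75, 4.62 and 3.00 in empty-vector, 5.80, 5.13 and 4.09 in BLNK-labelled and 5.34, 5.28 and 4.96 in YF-labelled cells. These are deposited signals of 3.19 to 35.6, above the 40th percentile on 8 of the 9 arrays, and the changes of 0.88 ± 0.48 with BLNK (adjusted p = 0.292, interval -0.16 to 1.92) and 1.07 ± 0.48 with YF (0.343) were not resolved. Over the 9 arrays Irf4 ran against Spib (r = -0.99) and Irf8 (-0.96) and with Bach2 (0.89), as a description of 3 groups. Of 2550 candidates Dmxl2 (0.993), Plek (0.991) and Pdcd1 (0.989) were most like Irf4, and Homer2 (0.964), Cnih2 (0.921) and Fam222a (0.915) most like Bcl6, while the other members varied by an SD under 0.5.

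**Figure D4:**
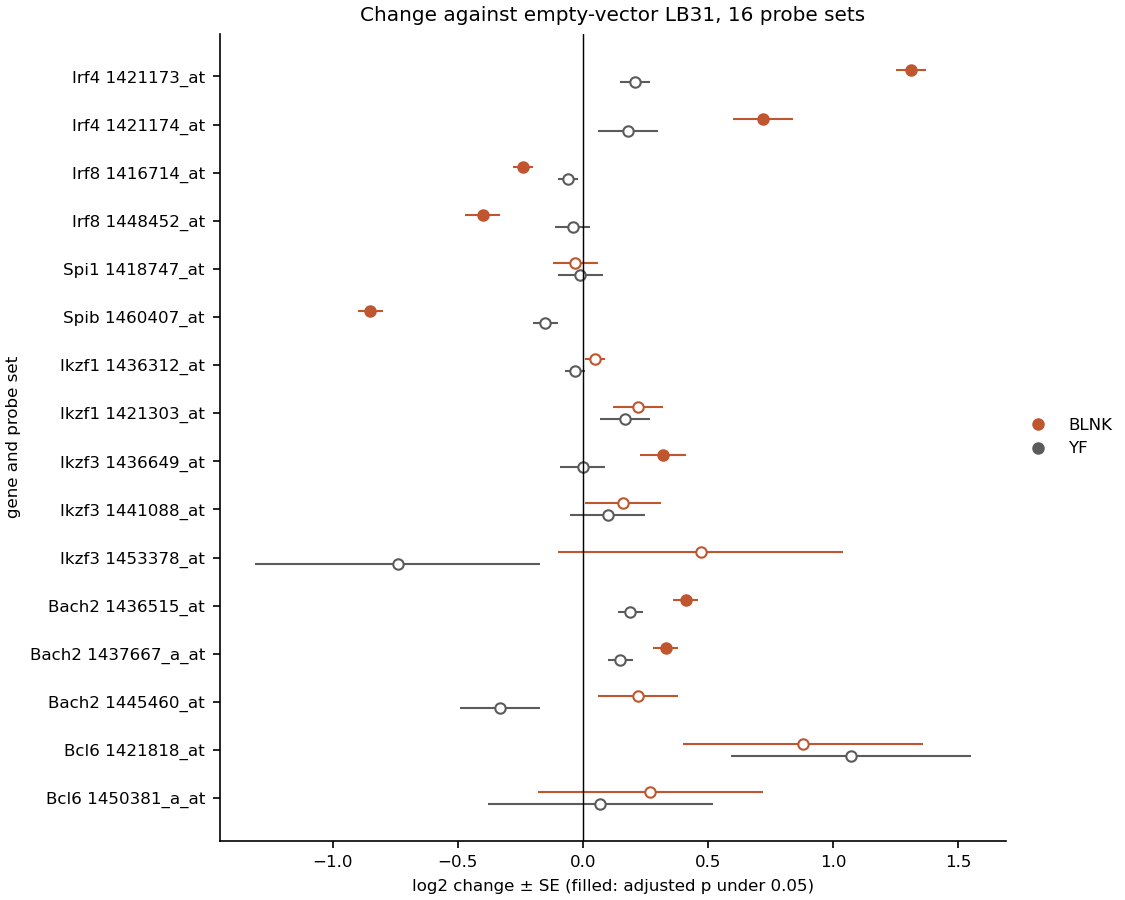
Change of each of the 16 probe sets in LB31 against empty-vector cells on the log2 scale (horizontal axis, bars are SE), for BLNK and YF. Filled points have an adjusted p under 0.05. BLNK points are filled for both Irf4 probe sets (1.31 and 0.72), 2 of Bach2, 1 of Ikzf3, both of Irf8 (whose representative gave -0.01 as deposited and 0.00 after centring) and Spib (-0.85), and every YF point is open.

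The genes around them were mixed in LB31. Of 4 genes that IRF4 and IRF8 activate, 2 rose with BLNK: Igk by 0.80 ± 0.15 (adjusted p = 0.00412) and Cxcr4, the chemokine receptor of marrow retention, by 0.54 ± 0.08 (0.00079). Both also rose over YF. Of 10 B-cell genes that PU.1 and Spi-B activate, 4 fell and none rose with BLNK: Blnk (-1.07 ± 0.05), the receptor chains Cd79a (-0.51 ± 0.05) and Cd79b (-0.45 ± 0.05), and Btk (-0.27 ± 0.05), with 1 left under either of the other scalings. The Blnk probe set is the one that goes against the label. Of 8 genes that Ikaros and Aiolos repress, 2 rose and 5 fell. Dntt fell by 2.72 ± 0.05 (adjusted p = 9.76e-12) and Ccnd3 by 0.45 ± 0.03, and Ccnd2 rose by 0.34 ± 0.04. As deposited 1 rose and 1 fell, and after centring 3 rose and 1 fell. Dntt also fell with YF, by 0.32 ± 0.05 (adjusted p = 0.0339). Of 9 genes that BACH2 and BCL6 repress, 2 rose and 2 fell with BLNK, with Ccl3 at 4.91 ± 0.38 (adjusted p = 2.4e-06) and Cdkn1a at -1.11 ± 0.09 (2.52e-06). Of 5 myeloid genes that PU.1 activates, Lyz2, lysozyme, fell by 2.28 ± 0.12 (adjusted p = 9.02e-08). Of 11 other Ets factors 1 rose, Fli1 (0.71 ± 0.17), and 4 fell, led by Erg (-0.83 ± 0.07, adjusted p = 5.44e-06), with 3 risers and 1 faller after centring. Of 12 partners 2 rose and 2 fell, led by Foxo1, a driver of Rag gene expression (-0.63 ± 0.07, adjusted p = 9.51e-05). Irf1 fell by 0.34 ± 0.08 among 6 other IRF genes, and Ikzf5 rose by 0.28 ± 0.07 of 2 Ikaros relatives.

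LB31 cells, which come from a Blnk KO mouse, were then set beside the marrow that carries the same label. All 16 probe sets differed between empty-vector LB31 and knockout-labelled marrow, 5 higher and 11 lower, in a comparison that called 56.9% of 33764 probe sets, 29.3% higher and 27.6% lower. Cell line against sorted tissue and leukaemia against non-neoplastic cells cannot be told apart here. The Cebpb signal also differed, in opposite directions on its probe sets. On 1427844_a_at it read 10.22 in empty-vector LB31 against 5.02 in knockout-labelled marrow (9.90 in LAP knockout-labelled marrow). On 1418901_at it read 4.62 in empty-vector LB31 against 7.04 in knockout-labelled marrow (7.20 in LAP knockout-labelled marrow). The part of the Cebpb signal was not tested. Bcl6 was lower in LB31 (-4.12 ± 0.37, adjusted p = 3.14e-09), but its empty-vector mean of 4.12 lies at the array's 40th percentile (4.06) and array 3 is below it, so the size of this change depends on the pseudocount and no fold is given. Irf4 was 3.69-fold lower (-1.88 ± 0.08, 2.1e-14), Bach2 lower by -1.91 ± 0.09 (9.14e-14) and Spib by -1.49 ± 0.11 (1.76e-10). Spi1 was 2.46-fold higher (1.30 ± 0.14, adjusted p = 5.5e-08), with all 9 LB31 arrays at 7.23 or above and all 3 knockout-labelled arrays at 6.27 or below. By the representative probe set, for 6 members every LB31 group mean lay below every marrow group mean. Ikzf3 was the exception: at 7.54 ± 0.10 in empty-vector cells it lay below knockout-labelled marrow (8.23 ± 0.29, adjusted p = 8.78e-05) and above LAP knockout-labelled marrow (6.70 ± 0.18, adjusted p = 9.14e-06, lost as deposited at 0.23, adjusted p = 0.2). On the further probe sets Irf4 1421174_at, Irf8 1448452_at and Ikzf1 1421303_at the order was the reverse. There every LB31 group mean lay above every marrow group mean.

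Against LAP knockout-labelled marrow 6 probe sets were higher and 6 lower in LB31, with 55.8% of all called, 28.7% higher and 27.1% lower. Irf8 there gave -0.09 ± 0.08 (adjusted p = 0.401), with -0.34 as deposited and 0.33 after centring (adjusted p = 0.00716), so its direction depends on the scaling. Bcl6 was lower by -3.77 ± 0.37, with the same limit on its size, Bach2 lower by -1.26 and Spib by -0.57 ± 0.11 (adjusted p = 0.000168, lost after centring at -0.15, adjusted p = 0.276). Spi1 was higher by 0.87 ± 0.14 (adjusted p = 1.65e-05), which was lost as deposited (0.23, adjusted p = 0.295).

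Probe sets of 1 gene disagreed most in this setting. Ikzf1 was lower in LB31 than in knockout-labelled marrow by -0.75 ± 0.08 on its representative (adjusted p = 9.57e-08) and 8.56-fold higher on 1421303_at (3.10 ± 0.18, adjusted p = 1.84e-12). On 1421303_at the 9 LB31 arrays read 7.53 to 8.10 and the 12 marrow arrays 4.41 to 5.45, with no overlap. Irf8 was lower by -1.04 ± 0.08 on its representative and higher by 0.57 ± 0.12 on 1448452_at (adjusted p = 0.000301), and Irf4 lower by -1.88 and higher by 0.54 ± 0.17 on 1421174_at (adjusted p = 0.0102), which turned to -0.25 in the values as deposited. Ikzf3 1441088_at was higher by 0.55 ± 0.20 (adjusted p = 0.0223) and -0.23 as deposited. Which transcript stretch each probe set reads was not analysed here, so the direction of Ikzf1, Irf4, Irf8 and Ikzf3 between LB31 and marrow holds per probe set.

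**Figure D5:**
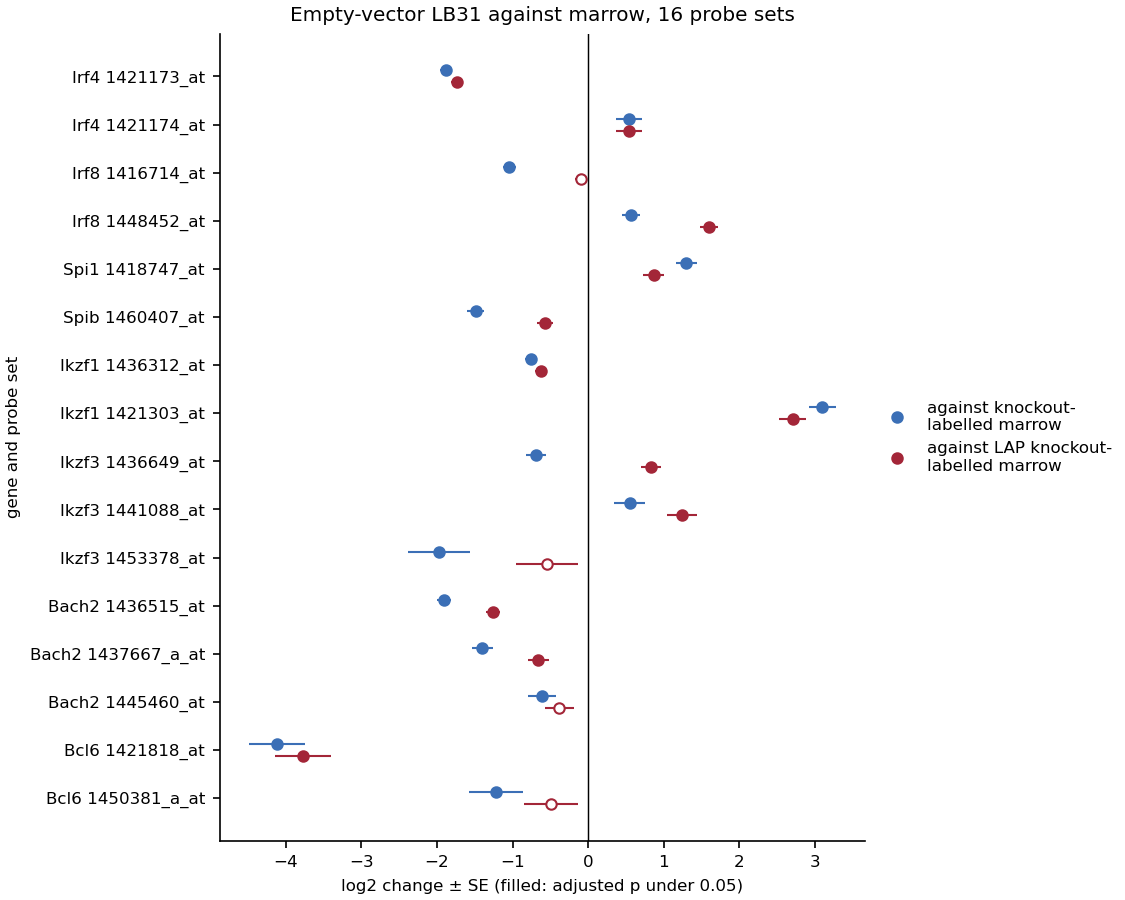
Change of each of the 16 probe sets in empty-vector LB31 against knockout-labelled and LAP knockout-labelled marrow on the log2 scale (horizontal axis, bars are SE). Filled points have an adjusted p under 0.05. Bcl6 1421818_at lies furthest to the left (-4.12 and -3.77) and Ikzf1 1421303_at furthest to the right (3.10 and 2.71), opposite to the other Ikzf1 probe set.

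Ordered by mean over the 7 groups, Irf4 ran from 10.15 ± 0.11 in wild-type marrow to 7.85 ± 0.04 in empty-vector LB31, with BLNK-labelled LB31 (9.17 ± 0.08) next below the marrow groups. Spib ran from 12.44 ± 0.08 in LAP marrow to 9.54 ± 0.09 in BLNK-labelled LB31, and LAP and wild-type marrow overlapped. Ikzf3 ran from 9.56 ± 0.14 in LAP marrow to 6.70 ± 0.18 in LAP knockout-labelled marrow, with knockout-labelled marrow and BLNK-labelled LB31 (7.86 ± 0.17) overlapping. Bach2 ran from 12.14 ± 0.10 in wild-type marrow to 9.92 ± 0.06 in empty-vector LB31, and the first 3 marrow groups overlapped in that order. Irf8 ran from 11.59 ± 0.23 in knockout-labelled marrow to 10.31 ± 0.01 in BLNK-labelled LB31, with LAP and wild-type marrow, and LAP knockout-labelled marrow and empty-vector LB31, overlapping. Ikzf1 spanned the smallest range, 1.26, from LAP marrow (11.74 ± 0.21) to YF-labelled LB31 (10.49 ± 0.04), and the 3 LB31 groups overlapped. Spi1 ran the other way, from 7.38 ± 0.14 in empty-vector LB31 to 6.08 ± 0.21 in knockout-labelled marrow. Bcl6 spanned the widest range, 4.62, from 8.75 ± 0.21 in wild-type marrow to 4.12 ± 0.97 in empty-vector LB31, with the 4 marrow groups overlapping in a chain and the 3 LB31 groups in another.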

How the data were processed

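Values are signal intensities of the array as the authors deposited them in 1 table. MAS5 is named in the submitters' processing notes, with its scaling target not given in the sources used here. Of 45101 probe sets, 64 controls were left out. Platform symbols were used: 34945 probe sets had 1 gene symbol, 932 several and 9160 none, and 34741 matched RefSeq (GRCm38.p6) by Entrez identifier with 0 symbols changed. The deposited intensities were turned into log2(signal + 4) and quantile normalised over the 21 arrays. limma 3.58.1 (lmFit, contrasts.fit, eBayes with trend) in R 4.3.3 was fitted separately to marrow (12 arrays) and LB31 (9 arrays), and to all 21 for comparisons between them. Probe sets entered a fit if at least 3 of its arrays had them above the 40th percentile of their own array, with two-sided p-values adjusted by Benjamini-Hochberg over all of them and called under 0.05. No count depth exists for arrays, and 3 arrays a group limit the precision. The script was tested on simulated data.

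The members and gene lists were chosen with earlier results of these data known. All member probe sets are accounted for. From each list at most 4 called genes with the largest change were named per comparison, or 2 where none was called. Likeness is the highest Pearson r, 3 genes a member. Alternatives were other scalings, no filter, 1 fit of all arrays, 1 probe set per gene, a replicate block and each array left out.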

Additional observations from a re-analysis of the deposited data

Results flagged for a closer look

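The LAP change differed between knockout-labelled and wild-type marrow, by the limma test of the difference itself, for 4 probe sets. The difference on the log2 scale was -1.1 for Irf8 1416714_at, -0.98 for Irf8 1448452_at, -1.13 for Spib and -1.56 for Ikzf3 1436649_at. Groups of 3 arrays are too small to look for single outlying arrays by the same procedure.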

How the results depend on the processing

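Of 88 changes of the 8 genes over 11 comparisons, 50 were called, of which 31 kept their call under every alternative and every array left out and 19 lost it at least once, and 8 of the 38 uncalled changes were called at least once. The count of called member probe sets moved by over 1.5 times in these cases. In the values as deposited it went from 8 to 3 in knockout-labelled against wild-type marrow, from 12 to 6 in LAP knockout-labelled against LAP marrow, from 8 to 4 in BLNK against empty vector and from 6 to 2 in BLNK against YF. With all 21 arrays in 1 fit it was 1 for LAP against wild type (0 in the marrow fit), 4 where BLNK and empty vector and 2 where BLNK and YF were compared. After centring each array on its median it was 1 for LAP against wild type, 3 for BLNK against YF and 4 for YF against empty vector (0 before). After centring, Irf8 went to 0.00 in BLNK against empty vector, with no direction left, and reversed to 0.33 in LB31 against LAP knockout-labelled marrow. The cause was not tested.

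Leaving out 1 array gave 5 to 7 calls in knockout-labelled against wild-type marrow (5 without wild-type array 1 or 2), 0 to 0 for LAP, 13 to 13 for LAP knockout-labelled against wild type, 5 to 7 against knockout-labelled and 10 to 14 against LAP marrow, 3 to 6 for the interaction, 3 to 5 for BLNK against YF (3 without BLNK array 1), 7 to 8 for BLNK and 0 to 1 for YF against empty vector (1 without empty-vector array 1), and 15 to 16 and 11 to 13 for LB31 against knockout-labelled and LAP knockout-labelled marrow. Deviations of same-numbered arrays correlated at -0.09 to 0.26 in marrow (1 of 18 pairs over 0.1) and -0.03 to 0.02 in LB31 (0 of 9). Differently numbered arrays were not set beside them, so these values cannot settle whether the replicate numbers pair the arrays. With the number as a replicate block the counts were 10, 0, 13, 7, 12, 6, 7, 0, 6, 16 and 12 in the order of knockout-labelled, LAP and LAP knockout-labelled against wild type, LAP knockout-labelled against knockout-labelled and against LAP marrow, interaction, BLNK and YF against empty vector, BLNK against YF, and LB31 against knockout-labelled and LAP knockout-labelled marrow. Under the block Bach2 (adjusted p = 0.0152) and Spib (0.0295) were called in knockout-labelled marrow and Bach2 in the interaction (0.0199), and the Ikzf3 rise with BLNK was not (0.0585).

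Over all probe sets the count of calls moved by over 1.5 times as follows. In the values as deposited it went from 3825 to 6910 in knockout-labelled against wild-type marrow, with the share of higher calls going from 49.2% to 90.6%, from 6389 to 11804 in LAP knockout-labelled against LAP marrow (53.5% to 90.8%), from 355 to 212 in the interaction, from 3360 to 736 in BLNK (48.9% to 71.3%) and 67 to 327 in YF against empty vector (50.7% to 96.6%), and from 1869 to 783 in BLNK against YF (39.4% to 11.9%). Centring gave 1833 for YF against empty vector (98% higher) and 1080 for BLNK against YF (18.2% higher). All 21 arrays in 1 fit gave 1853 for LAP against wild type (782 before), 885 for the interaction, 682 for BLNK against YF, and 1465 and 16 for BLNK and YF against empty vector. YF against empty vector had 24 without the filter, 4 with the block, 2069 without empty-vector array 1 and 1 to 11 without another array. With 1 probe set per gene, fewer are tested and counts were 2284 and 4162 (7593 before) for knockout-labelled and LAP knockout-labelled against wild type, 1027 (1567) and 3601 for LAP knockout-labelled against knockout-labelled and LAP marrow, 2059 and 1172 for BLNK against empty vector and YF, and 8695 (19213) and 8614 (18847) for LB31 against both marrow groups. Without 1 array, LAP against wild type fell to between 245 and 364, knockout-labelled against wild type to 2528, LAP knockout-labelled against knockout-labelled to between 810 and 1042, BLNK against empty vector to 2200 and BLNK against YF to between 1079 and 1205, and the interaction ran from 208 to 578. Low signal limits Bcl6 in LB31, where its probe sets passed the array's 40th percentile on 8 and 4 of 9 arrays.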
